A study of Mus musculus with 2 samples.

Results

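In single-cell RNA-Seq of sorted mouse alveolar macrophages (AMs), 465 cell barcodes combined a low number of unique molecular identifiers (UMIs, each standing for 1 captured transcript) with a high share of nuclear non-coding RNA. A barcode was a member when it had at least 500 detected genes, at most 10% of its UMIs in mitochondrially encoded (mt-) genes and fewer than 4000 UMIs, and when its share of UMIs in *Malat1*, *Neat1*, *Kcnq1ot1* and *Lncpint* lay in the highest 5% of the 13851 barcodes that passed the gene and mt- limits. That limit fell at 2.92% of UMIs. The members were selected on these measured values, so the levels of these 4 RNAs are given as a description. The 465 members were drawn from 17660 deposited barcodes, and all of them entered the sums below. They were set against the 985 other barcodes under 4000 UMIs that passed the same gene and mt- limits, called the comparison barcodes, and the 12401 barcodes of 4000 UMIs or more served as a further reference.

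The Control-AM library came from C57BL/6 mice with a vehicle-injected left lung, and the Tumor-AM library from C57BL/6 mice whose left lung had been injected with Lewis lung carcinoma (LLC) cells labelled with tdTomato, an orthotopic tumor model that uses a single transplanted cell line. Both libraries were labelled as lung AMs at postnatal week 10. According to the study's methods, all of its mice were female. The cells were isolated as AMs with a cell sorter after a stain that removes dead cells. The study gates AMs as CD45+ autofluorescent cells that are Siglec-F+ and F4/80+, which sets them apart from Siglec-F- CD11b+ macrophages of the tumor-bearing lung, and the exact gate of these libraries is not given in the sources used here. There was 1 library for each condition, and the number of mice in each was not given in the sources used here. The study's methods assign barcodes to samples by hashtag reads, which were not used here, so each barcode was taken as the condition of its library. With no map from barcodes to animals no test between conditions was made, library and condition cannot be told apart, and every interval given covers counting error only.

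AMs are the resident phagocytes of the air spaces and clear surfactant and inhaled particles. *Malat1* is a long non-coding RNA (lncRNA) retained in nuclear speckles, *Neat1* is the scaffold of paraspeckles, *Kcnq1ot1* is an imprinted antisense RNA that acts on its own chromosomal domain, and *Lncpint* is a lncRNA induced by p53. In GRCm38 *Malat1* lies at chr19:5795690-5802672 and *Neat1* at chr19:5824708-5845478, *Kcnq1ot1* lies at chr7:143203458-143296549 and *Lncpint* at chr6:31082565-31220488, all on the minus strand. Messenger RNAs of soluble proteins are translated on free ribosomes in the cytosol, those of secreted and membrane proteins on the endoplasmic reticulum, and mt- transcripts stay inside mitochondria. The gene groups below follow these compartments. All gene lists were chosen with earlier results of these data known. Their counts beside the shares over all tested genes are therefore a description and no independent evidence.

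Members made up 4.06% (251 of 6185, exact 95% interval 3.58% to 4.58%) of the passing Control-AM barcodes and 2.79% (214 of 7666, 2.43% to 3.19%) of those of Tumor-AM. Among barcodes under 4000 UMIs they were 39.6% of 634 in Control-AM and 26.2% of 816 in Tumor-AM. In Control-AM the share of barcodes at or above the nuclear RNA limit was between 30.8% and 46.8% in every 500-UMI step below 4000 UMIs, then 19.9% at 4000 to 6000 UMIs and 0.362% above 10000 UMIs. In Tumor-AM it ran from 69.8% below 1000 UMIs to 5.79% at 3500 to 4000 UMIs. A further 228 barcodes, 131 in Control-AM and 97 in Tumor-AM, passed the nuclear RNA limit with 4000 UMIs or more and were not members. The 2 libraries shared 25 barcode sequences, and 0 of these were members in either library.

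**Figure D1:**
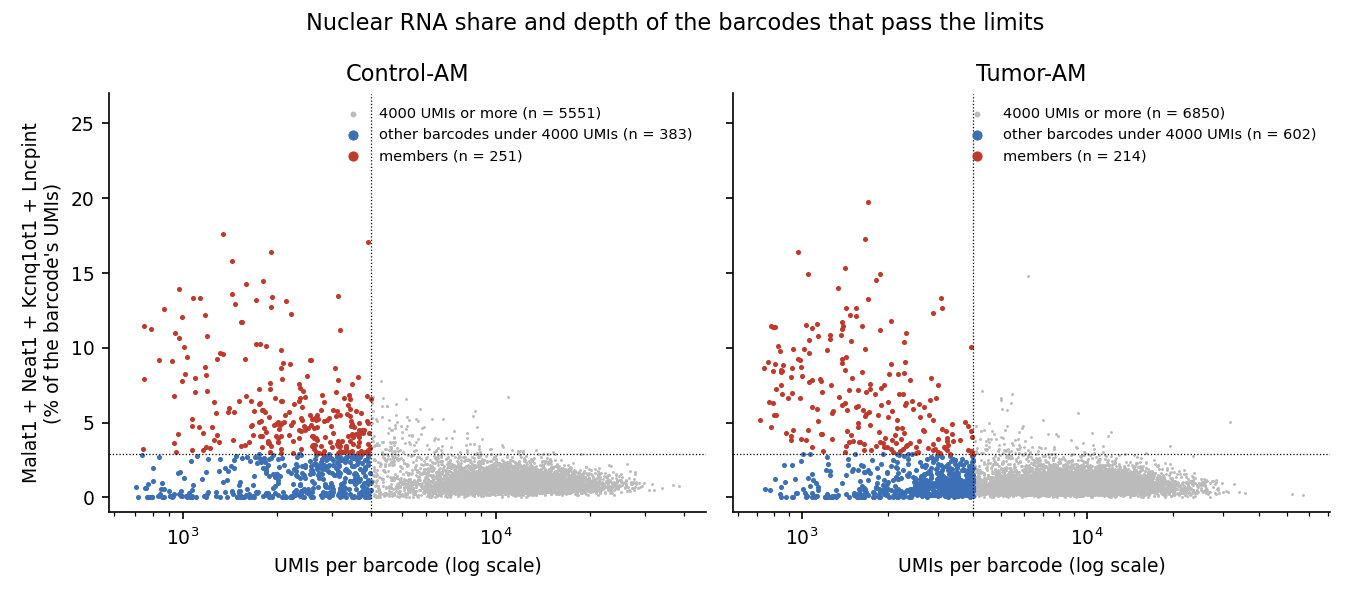
Share of UMIs in the 4 nuclear RNAs (y axis, percent) against UMIs per barcode (x axis, log scale) for all passing barcodes of each library, 1 point per barcode, with dotted lines at 4000 UMIs and at the 2.92% limit. Members occupy the upper left of each panel, and their highest shares reach 17.6% in Control-AM and 19.8% in Tumor-AM.

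The rule takes a range of a continuous score, and many barcodes lay near its limit. Within 0.5 percentage points of the limit lay 34 Control-AM and 28 Tumor-AM members on the inside and 62 and 32 comparison barcodes on the outside. The median ribosomal protein share of these neighbours was 5.41% inside and 5.33% outside in Control-AM, and 4.23% and 4.51% in Tumor-AM. Members just inside the limit were thus close to comparison barcodes just outside it.

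Members were shallower than the comparison barcodes, most of all in Tumor-AM. The median was 2241 UMIs in Control-AM members against 2505, and 1664 in Tumor-AM members against 3035. The median number of detected genes was 1196 against 1277 in Control-AM and 918 against 1467 in Tumor-AM. After each barcode was thinned to 1000 UMIs the medians were 649 and 642 genes in Control-AM and 621 and 646 in Tumor-AM, with 16 and 36 shallower barcodes left out in Control-AM and 37 and 16 in Tumor-AM. The gap in detected genes thus became small at equal depth. All members together held 583328 UMIs in Control-AM and 397927 in Tumor-AM.

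The AM label was checked against 15 AM markers, which include the chitinase-like protein gene *Chil3*, the mannose receptor gene *Mrc1* and the eosinophil-associated ribonuclease gene *Ear2*. None of the 15 was at 0 in the summed members. The part of free RNA in these marker levels was not tested. Levels are given as CPM, the UMIs of a gene scaled to a common total for each group of barcodes, with the 4 nuclear RNAs left out of the total. Summed over barcodes, the markers reached 24900.2 CPM in Control-AM members against 26774 in comparison barcodes, and 19985 CPM against 19452 in Tumor-AM. *Chil3* held most of these sums. Gene by gene, 4 of the 15 were higher and 7 lower in both libraries, 0 were called, and the median log2 ratio was -0.09 in Control-AM and -0.08 in Tumor-AM. The median over single barcodes was 18642 CPM against 19861 in Control-AM and 12014 CPM against 17952 in Tumor-AM, so the median Tumor-AM member lay below the comparison while the sum did not. *Chil3* stood at 15870.2 CPM against 18609.6 CPM in Control-AM (log2 ratio -0.23 [-0.27 to -0.19]) and 12546 CPM against 12768 CPM in Tumor-AM (-0.03 [-0.07 to 0.02]). *Mrc1* was somewhat higher in members, with 2206 CPM against 1384 CPM in Control-AM (log2 ratio 0.67 [0.56 to 0.79]) and 1368 CPM against 944 CPM in Tumor-AM (0.53 [0.39 to 0.68]).

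Markers of other cell types had low summed levels in members. The 9 neutrophil markers summed to 111 CPM in Control-AM members and 69.7 CPM in Tumor-AM members, with 5 of the 9 at 0 in each. In the comparison barcodes they summed to 853 CPM in Control-AM and 111 CPM in Tumor-AM. At least 3 UMIs of them were found in 4 of 251 Control-AM members (1.59%) and 6 of 383 Control-AM comparison barcodes (1.57%). Any such UMI was found in 92 of the 383, so the higher sum there rested on few barcodes. *S100a9*, a defining neutrophil gene, had 0 UMIs in the members of both libraries and 349 CPM in the Control-AM comparison barcodes. The 11 alveolar epithelial markers were higher in members, at 149 against 100.1 CPM in Control-AM and 59.0 against 32.5 CPM in Tumor-AM (log2 ratios 0.57 [0.13 to 1.02] and 0.86 [0.07 to 1.60]). The 11 markers of interstitial or monocyte-derived macrophages summed to 29.1 against 38.1 CPM in Control-AM and 109.9 against 82.8 CPM in Tumor-AM, members first, and those of endothelium (6 genes) to 61.8 against 92.5 CPM in Control-AM and 53.6 against 58.6 CPM in Tumor-AM. The 7 B cell markers summed to 70.9 against 347 CPM in Control-AM and 16.1 against 12.4 CPM in Tumor-AM. All 39 UMIs of the Control-AM members lay in 1 barcode. The 319 UMIs of the Control-AM comparison barcodes lay in 11 of 383 barcodes, 5 of them with at least 3 UMIs. Eosinophil, T cell, NK cell, dendritic cell, basophil or mast cell, fibroblast, erythroid and platelet markers each summed to under 30 CPM in the members of either library. At least 3 UMIs of the interstitial or monocyte-derived macrophage markers were found in 0 Control-AM members and in 5 of 214 Tumor-AM members (2.34%). At least 3 UMIs of any other of these lists were found in 4.38% of Control-AM members and 0.467% of Tumor-AM members.

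As the selection required, the 4 nuclear RNAs were high in members. Their median share of UMIs was 5.07% in Control-AM members against 0.941% in comparison barcodes, and 6.17% against 0.650% in Tumor-AM. *Malat1* carried most of it, with 52768 CPM against 10966 CPM in Control-AM and 59938 CPM against 7938 CPM in Tumor-AM. *Neat1* stood at 5150.1 and 5395 CPM in members, *Kcnq1ot1* at 1772 and 1392 CPM, and *Lncpint* at 373 and 282 CPM. The same RNAs were at 11114 and 9602 CPM together in barcodes of 4000 UMIs or more.

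Other lncRNAs that had no part in the selection were also compared. Among the 5494 genes with a mean of at least 25 CPM over the members and comparison barcodes of both libraries, a gene was called when it differed at least 1.5-fold in the same direction in each library. By this rule 1063 genes (19.3%) were higher in members and 712 (13.0%) were lower, and 33 passed 1.5-fold in opposite directions. The list of other lncRNAs had 8 of 14 tested genes called higher and 0 called lower, with a median log2 ratio of 0.82 in Control-AM and 1.31 in Tumor-AM, beside medians over all tested genes of 0.13 and 0.11. *Xist*, the RNA that coats the inactive X chromosome, stood at 3651 CPM against 1147 CPM in Control-AM (log2 ratio 1.67 [1.56 to 1.78]) and 3968 CPM against 903 CPM in Tumor-AM (2.14 [2.03 to 2.24]). *Gm26917*, at chr17:39843013-39846341, stood at 1278 CPM against 447 CPM in Control-AM (log2 ratio 1.51 [1.34 to 1.69]) and 1955 CPM against 474 CPM in Tumor-AM (2.04 [1.90 to 2.19]). *Gm26917* had been named as a marker of these barcodes with earlier results of these data known, so its ratios are a description. *Mir22hg*, the host gene of miR-22, stood at 234 CPM against 72.9 CPM in Control-AM (log2 ratio 1.68 [1.25 to 2.13]) and 341 CPM against 78.1 CPM in Tumor-AM (2.12 [1.76 to 2.49]). By contrast *Gm42418*, which lies next to *Gm26917* at chr17:39846958-39848788, stood at 45179 CPM against 46791 CPM in Control-AM (log2 ratio -0.05 [-0.07 to -0.03]) and 60002 CPM against 56976 CPM in Tumor-AM (0.07 [0.05 to 0.10]). Since *Gm42418* held most UMIs of this list, the summed level differed only 1.04-fold in Control-AM and 1.14-fold in Tumor-AM. Whether the reads assigned to *Gm42418* and *Gm26917* come from lncRNA transcripts was not tested. Of the 63 tested genes of lncRNA biotypes, 40 (63.5%) were called higher and 6 (9.52%) lower.

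Messenger RNAs that encode splicing factors and their regulators, many of which keep introns in the nucleus, had 24 of 38 tested genes called higher and 0 called lower, against the 19.3% and 13.0% among all tested genes. Their median log2 ratio was 0.81 in Control-AM and 1.14 in Tumor-AM. *Hnrnph1*, which encodes an RNA-binding splicing regulator, stood at 839.6 CPM against 359 CPM in Control-AM (log2 ratio 1.22 [1.02 to 1.43]) and 804 CPM against 344 CPM in Tumor-AM (1.22 [1.02 to 1.43]). *Ccnl1*, a cyclin gene linked to splicing, stood at 785 CPM against 407 CPM in Control-AM (log2 ratio 0.95 [0.74 to 1.15]) and 992 CPM against 368 CPM in Tumor-AM (1.43 [1.24 to 1.62]). The abundant helicase gene *Ddx5* was not called, at log2 ratios of 0.15 and 0.25, nor was *Hnrnpa2b1*, at 0.42 and 0.65.

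Chromatin and transcription regulators had 31 of 45 called higher and 0 called lower, against 19.3% and 13.0% of all tested genes. Their median log2 ratio was 0.84 in Control-AM and 0.96 in Tumor-AM. *Ankrd11*, a large chromatin co-regulator gene, stood at 905 CPM against 281 CPM in Control-AM (log2 ratio 1.69 [1.47 to 1.91]) and 630.1 CPM against 195 CPM in Tumor-AM (1.70 [1.45 to 1.94]). *Zeb2*, a zinc-finger repressor that maintains macrophage identity, stood at 1116 CPM against 556 CPM in Control-AM (log2 ratio 1.004 [0.83 to 1.18]) and 1772 CPM against 624 CPM in Tumor-AM (1.51 [1.36 to 1.65]). The log2 ratios of *Chd4*, the helicase subunit of the NuRD complex, were 0.87 and 1.03, and those of the transcription factor gene *Runx1* were 0.61 and 0.87. *Mbnl1* was not called, at 0.36 and 0.54. Summed levels of the list differed 1.80-fold in Control-AM and 2.04-fold in Tumor-AM.

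Cytosolic ribosomal protein genes, whose short and abundant transcripts are translated in the cytosol, were lower in members. Of 82 tested, 81 were called lower and 0 higher, against 13.0% and 19.3% of all tested genes. Their median log2 ratio was -1.05 in Control-AM and -1.34 in Tumor-AM. Their summed level was 47616 CPM in Control-AM members against 100155, and 36062 CPM in Tumor-AM members against 93920.5. *Rplp1*, an acidic protein gene of the large subunit, stood at 1219 CPM against 2978 CPM in Control-AM (log2 ratio -1.29 [-1.41 to -1.17]) and 1073 CPM against 3939 CPM in Tumor-AM (-1.88 [-2.03 to -1.73]). *Rpl41*, *Rpl37a* and *Rpl35a* had log2 ratios of -1.40 and -1.70, -1.29 and -1.66 and -1.26 and -1.57. The median ribosomal share per barcode was 4.01% in Control-AM members and 2.82% in Tumor-AM members, against 9.46% and 8.81% in comparison barcodes and 13.2% and 10.7% in barcodes of 4000 UMIs or more.

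Nuclear-encoded genes of the respiratory chain had 32 of 42 called lower and 0 higher, against 13.0% and 19.3% of all tested genes. Their median log2 ratio was -0.93 in Control-AM and -1.11 in Tumor-AM. *Cox4i1*, a subunit of cytochrome c oxidase, stood at 452 CPM against 853 CPM in Control-AM (log2 ratio -0.92 [-1.13 to -0.71]) and 319 CPM against 791 CPM in Tumor-AM (-1.31 [-1.59 to -1.04]). *Cox5a*, *Cox8a* and *Atp5l* had log2 ratios of -1.06 and -1.26, -0.80 and -0.72 and -0.80 and -1.07. The mitochondrially encoded genes of the same complexes went the other way. Of 13 tested, 12 were called higher and 0 lower, with a median of 0.79 in Control-AM and 1.21 in Tumor-AM, although members and comparison barcodes alike were limited to at most 10% of UMIs in these genes. *mt-Co1*, another subunit of cytochrome c oxidase, stood at 15765 CPM against 9417 CPM in Control-AM (log2 ratio 0.74 [0.70 to 0.79]) and 17287 CPM against 7696 CPM in Tumor-AM (1.17 [1.12 to 1.21]). The 2 genomes that supply this complex therefore stood on opposite sides of the comparison.

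Soluble cytosolic proteins had 24 of 42 tested genes called lower and 0 higher, against 13.0% and 19.3% of all tested genes. Their median log2 ratio was -0.79 in Control-AM and -0.89 in Tumor-AM. *Tmsb4x*, which encodes the actin-sequestering thymosin beta 4, stood at 7122 CPM against 17233 CPM in Control-AM (log2 ratio -1.27 [-1.33 to -1.22]) and 6425 CPM against 19243 CPM in Tumor-AM (-1.58 [-1.64 to -1.52]). *Actb*, the beta-actin gene, stood at 5030.2 CPM against 9790.3 CPM in Control-AM (log2 ratio -0.96 [-1.02 to -0.90]) and 4282 CPM against 10068 CPM in Tumor-AM (-1.23 [-1.31 to -1.16]). *Ftl1*, the ferritin light chain gene, was called lower at -0.61 and -1.09, while *Fth1*, the heavy chain gene, was not called at -0.46 and -0.39. The glycolytic gene *Gapdh* was called lower at -0.85 and -0.68. Secreted, lysosomal and membrane proteins of AMs, in contrast, had 0 of 41 called higher and 1 of 41 (2.44%) lower, beside 19.3% and 13.0% of all tested genes. Their median was -0.01 in Control-AM and -0.06 in Tumor-AM, and the summed ratios were 0.968-fold in Control-AM and 0.961-fold in Tumor-AM. The median over single barcodes was 62278 CPM against 69272 CPM in Control-AM and 45503 CPM against 69516 CPM in Tumor-AM, so the median member lay below the comparison, most of all in Tumor-AM, while the sums were near parity. The lysosomal protease gene *Ctsd* stood at 6831 CPM against 6073 CPM in Control-AM (log2 ratio 0.17 [0.11 to 0.23]) and 7602 CPM against 6826 CPM in Tumor-AM (0.16 [0.10 to 0.21]). *Psap*, a precursor of lysosomal lipid-binding proteins, had log2 ratios of -0.01 and -0.21, and the lysozyme gene *Lyz2* had -0.26 and -0.30. Genes of endoplasmic reticulum chaperones had 1 of 17 (5.88%) called higher and 2 of 17 (11.8%) lower, the latter near the 13.0% of all tested genes. *Hspa5* was at 0.48 and 0.56. *Ptprc*, which encodes the surface protein CD45 by which the study gates AMs, had 0.48 and 0.57 and was not called.

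**Figure D2:**
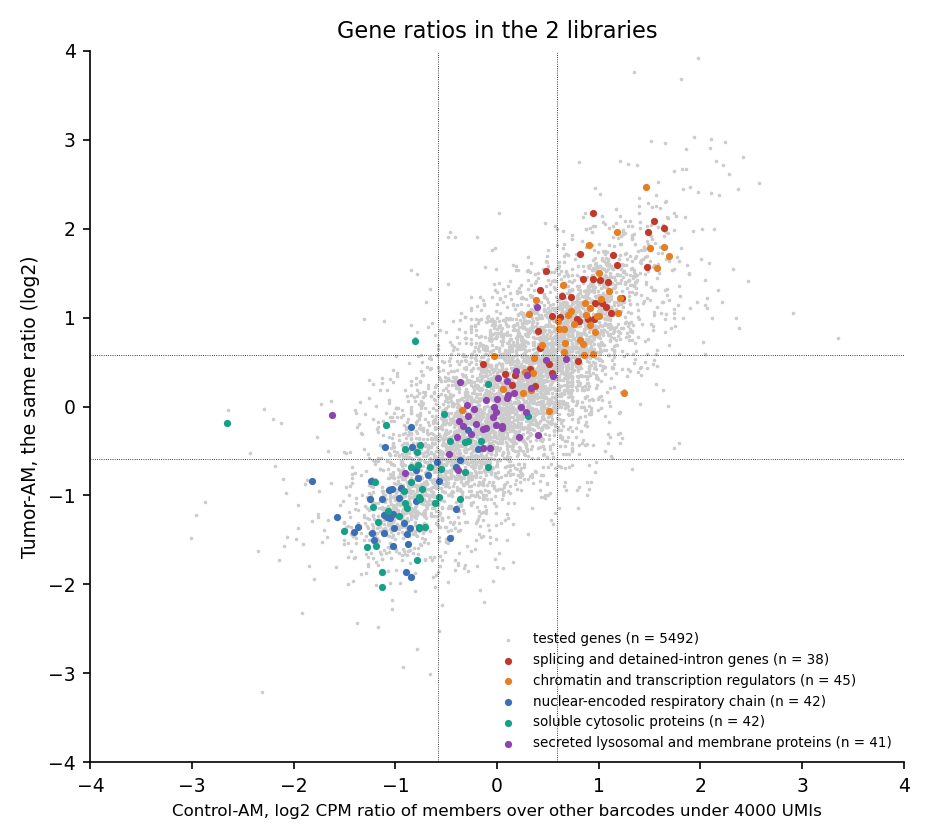
Log2 CPM ratio of members over comparison barcodes in Control-AM (x axis) and Tumor-AM (y axis), with 5 gene groups in colour and dotted lines at 1.5-fold. There is 1 point per gene for 5490 of the 5494 tested genes. Splicing and chromatin genes lie mostly in the upper right, respiratory chain and soluble cytosolic genes mostly in the lower left, and secreted, lysosomal and membrane protein genes near the origin; 2 genes lie outside the axes.

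**Figure D3:**
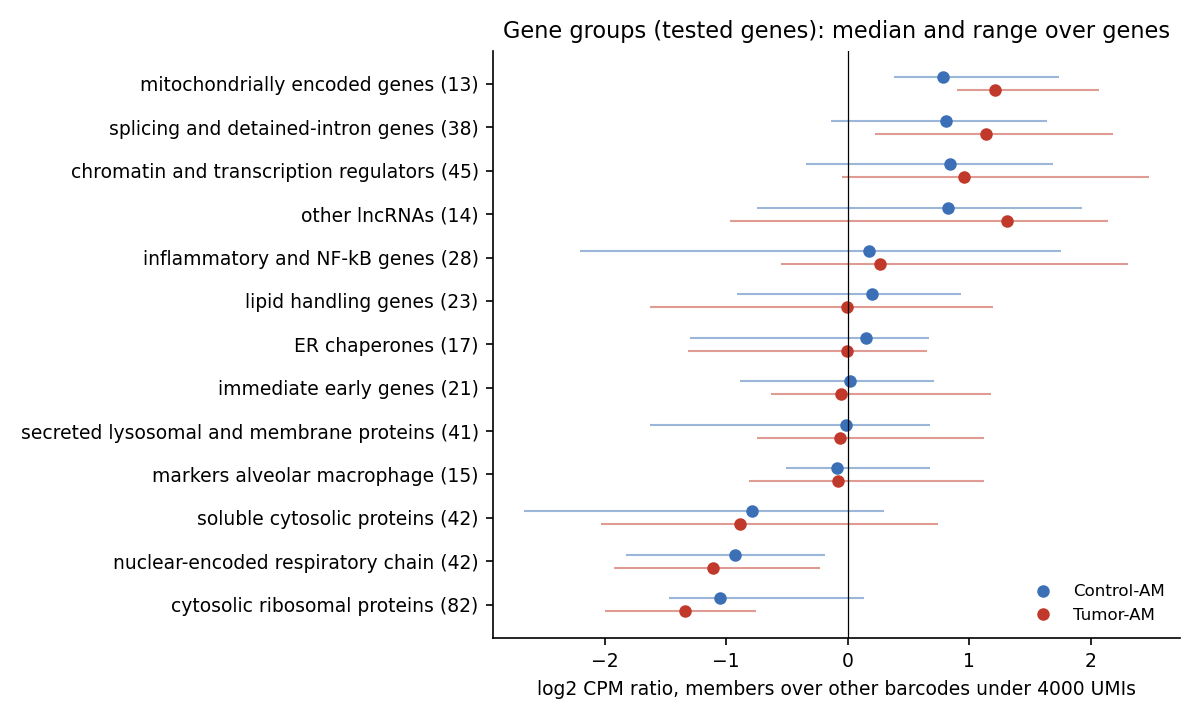
Log2 CPM ratio of members over comparison barcodes for 13 gene groups (rows, number of tested genes in brackets) in each library. Points are medians over genes and lines run from the lowest to the highest gene; ribosomal protein genes have medians of -1.05 in Control-AM and -1.34 in Tumor-AM.

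By the rule that ranks genes on the library with the weaker ratio, the 10 genes furthest above the comparison, ribosomal and mt- genes left out, were *Kcnip4*, *Rbm4*, *BC005561*, *Sik2*, *Mapk8ip3*, *Mau2*, *Malt1*, *Gm26532*, *Ankrd11* and *Mir22hg*. *Kcnip4*, which encodes a potassium channel interacting protein, stood at 118 CPM against 22.9 CPM in Control-AM (log2 ratio 2.37 [1.64 to 3.15]) and 109.9 CPM against 20.1 CPM in Tumor-AM (2.45 [1.76 to 3.15]). *Rbm4*, an RNA-binding splicing regulator gene, stood at 89.0 CPM against 19.6 CPM in Control-AM (log2 ratio 2.18 [1.38 to 3.05]) and 85.8 CPM against 16.6 CPM in Tumor-AM (2.37 [1.60 to 3.16]). *Malt1*, which encodes a signalling paracaspase of the NF-kB pathway, was the most abundant of the 10 after *Ankrd11* in Control-AM members, at 603 CPM against 179 CPM in Control-AM (log2 ratio 1.76 [1.48 to 2.04]) and 1292 CPM against 293 CPM in Tumor-AM (2.14 [1.96 to 2.32]). *Sik2*, a salt-inducible kinase gene, had 1.85 and 2.13, and *Mau2*, a cohesin loader subunit gene, had 1.81 and 1.79. The 5 members with most UMIs held 20% of *Kcnip4* UMIs in Control-AM and 34.1% in Tumor-AM.

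The 10 furthest below were *Igkc*, *Stmn1*, *1110008P14Rik*, *Cops9*, *Mrps14*, *Ndufb1-ps*, *2410006H16Rik*, *Etfa*, *Myl12a* and *Cox7a2l*. *Ndufb1-ps*, named as a pseudogene of a respiratory complex I subunit gene, stood at 116 CPM against 331 CPM in Control-AM (log2 ratio -1.51 [-1.92 to -1.12]) and 126 CPM against 367 CPM in Tumor-AM (-1.54 [-2.00 to -1.11]). *Cox7a2l*, a respiratory supercomplex factor gene, stood at 102 CPM against 272 CPM in Control-AM (log2 ratio -1.42 [-1.86 to -0.996]) and 80.4 CPM against 314 CPM in Tumor-AM (-1.97 [-2.55 to -1.43]). *Cops9*, a small subunit gene of the COP9 signalosome, had -1.58 and -1.80, and the mitochondrial ribosome gene *Mrps14* had -1.72 and -1.52. *Stmn1*, a microtubule regulator gene of dividing cells, stood at 29.1 CPM against 145 CPM in Control-AM (log2 ratio -2.32 [-3.16 to -1.56]) and 8.04 CPM against 74.5 CPM in Tumor-AM (-3.21 [-5.51 to -1.63]) and rested on 16 and 3 UMIs in members. The immunoglobulin gene *Igkc* stood at 32.7 CPM against 241 CPM in Control-AM, with all 18 member UMIs in 1 barcode, and had 0 UMIs in members and 1 in comparison barcodes of Tumor-AM, so that no fold is given there. Its rank therefore rested on Control-AM alone, where the direction turned against all other passing barcodes (log2 ratio 3.20), and it was the only called gene with both groups of a library at or under 3 UMIs.

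Called genes differed in length. The tested genes were split into 4 groups of near equal size by the summed length of their exons in the GENCODE annotation of GRCm38, mt- genes left out. In the shortest group (381 to 3075 bases) 4.38% were called higher and 34.9% lower. In the longest group (7792 to 123179 bases) 44.2% were called higher and 0.657% lower, and the middle groups lay between, with 8.03% and 20.1% higher. Without the ribosomal protein, respiratory chain and soluble cytosolic lists, 4.82% of the shortest group and 45.1% of the longest were called higher. Split by the span of the gene on the chromosome, 7.95% of the shortest and 36.1% of the longest group were called higher. These shares are a description across genes, which are not independent replicates.

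Members differed among themselves along the score. When each library's members were ordered by their nuclear RNA share and divided into 3 parts of near equal size, ribosomal protein genes stood at 55602, 47997 and 35477 CPM from the lowest to the highest part in Control-AM and at 41446, 35354 and 27518 CPM in Tumor-AM. Splicing genes stood at 12440, 14209.6 and 20068 CPM in Control-AM and 11957, 17491 and 21218 CPM in Tumor-AM, the opposite order. The secreted, lysosomal and membrane group, near parity over all members, was at 89380.5 and 87197 CPM in the lower parts of Control-AM and at 47109 CPM in the highest part. In Tumor-AM it was at 99734, 66444 and 27918 CPM. AM markers were lowest in the highest part, at 28278, 28699.9 and 14689 CPM in Control-AM and 27226, 19045 and 8476 CPM in Tumor-AM. The AM marker list and the secreted, lysosomal and membrane list had the same highest gene ratio in each library (log2 0.67 and 1.12). Their sums, here and below, are therefore not taken as separate results.

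Mitochondrially encoded genes did not follow that order in Control-AM, at 71517, 72842 and 71156 CPM, and were at 60421, 73842 and 73634 CPM in Tumor-AM. Depth moved with the score: the median was 2640, 2446 and 1761 UMIs in Control-AM and 2250, 1675 and 1380 UMIs in Tumor-AM. The part that depth has in these orders was not tested.

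The mt- share of all barcodes under 4000 UMIs with at least 500 genes was then set against the nuclear RNA limit. Of those with under 2.5% mt- UMIs, 12.4% in Control-AM and 4.83% in Tumor-AM were at or above the nuclear RNA limit, and of those with 7.5 to 10% mt- UMIs 58.5% and 66.4% were. Beyond the mt- limit, at 10 to 20%, the shares were 77.7% and 86.4%. The mt- limit thus kept 728 Control-AM and 654 Tumor-AM barcodes with high nuclear RNA out of the members. The median mt- share of the members was 6.96% in Control-AM and 6.54% in Tumor-AM, against 3.101% and 2.29% in comparison barcodes.

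**Figure D4:**
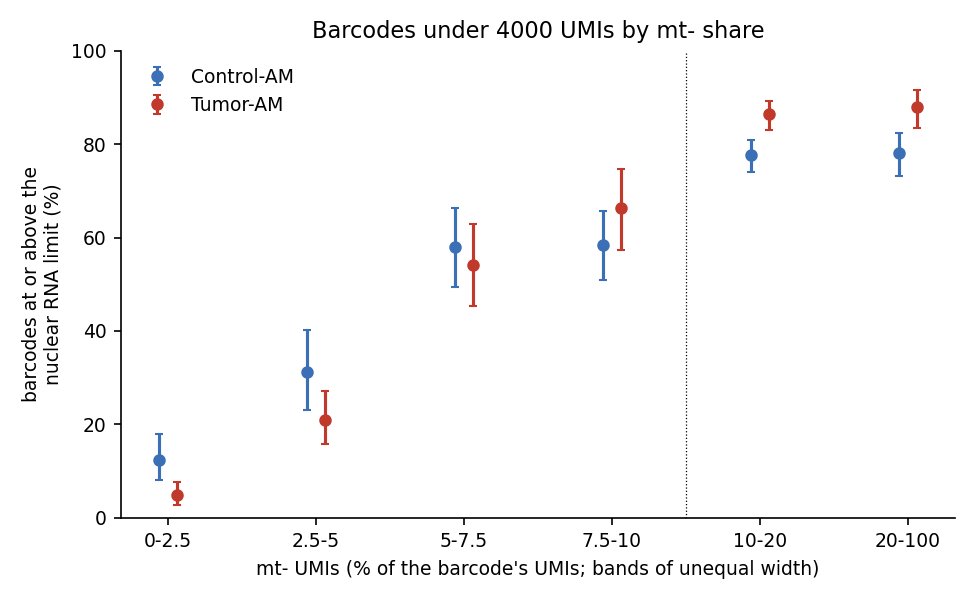
Percent of barcodes under 4000 UMIs at or above the nuclear RNA limit (y axis) by mt- share (x axis, bands of unequal width), with exact 95% binomial intervals. The dotted line marks the 10% mt- limit of the members; the share is 12.4% and 4.83% in the lowest band and 78.0% and 88.0% in the highest.

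Members were next compared with these barcodes over the mt- limit, with mt- genes also left out of the totals. Splicing genes were lower in members, at log2 ratios of -0.26 [-0.30 to -0.22] in Control-AM and -0.34 [-0.39 to -0.30] in Tumor-AM. The secreted, lysosomal and membrane group was higher in members, at 0.72 [0.70 to 0.74] and 1.07 [1.04 to 1.09], and so were AM markers, at 0.78 [0.75 to 0.81] and 1.23 [1.18 to 1.27]. Ribosomal protein genes were closer, at 0.09 [0.06 to 0.11] and 0.20 [0.17 to 0.23]. Against the 228 deeper barcodes that passed the nuclear RNA limit, members were lower in ribosomal protein genes, at -0.49 [-0.51 to -0.47] and -0.95 [-0.98 to -0.92], and close in AM markers, at -0.02 [-0.05 to 0.01] and 0.06 [0.01 to 0.10]. Of the 97 deeper Tumor-AM barcodes, 1 held 847 of their 850 UMIs of fibroblast markers, which summed to 1424 CPM there against 31.6 CPM in members. Without the deeper barcodes that held at least 3 UMIs of another cell type's markers, a step added after these values were seen, the ribosomal ratios were -0.47 [-0.50 to -0.45] and -0.78 [-0.81 to -0.76] and those of AM markers -0.0037 [-0.04 to 0.03] and 0.03 [-0.01 to 0.07].

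The last comparison set Tumor-AM members against Control-AM members, which had median depths of 1664 and 2241 UMIs. A gene was called at 2-fold or more, and 255 of the 5494 genes (4.64%) were higher in Tumor-AM members and 245 (4.46%) lower. These counts moved with the limits of the members, to 462 and 561 with at most 5% mt- UMIs, and that of lower genes to 376 under 3000 UMIs, 140 under 6000 UMIs and 138 with the highest 10%. The 12 genes of a list of tumor library genes, which had been picked with earlier results of these libraries known and are no independent evidence of direction, had 10 called higher and 0 lower. Genes of inflammation and NF-kB signalling had 14 of 28 called higher and immediate early genes 8 of 21, with 0 lower in either, and their medians were 0.99 and 0.73 beside -0.06 over all tested genes. The difference between libraries was not limited to members. The inflammation list summed in Tumor-AM against Control-AM to 11709.7 against 6064 CPM in members, 8749 against 5302 CPM in comparison barcodes and 7621 against 4597 CPM in barcodes of 4000 UMIs or more. The immediate early list summed to 13439 against 7879.7 CPM in members, 13878 against 8419 CPM in comparison barcodes and 10816 against 7184 CPM in barcodes of 4000 UMIs or more. MHC class II genes, which present extracellular antigens, had 0 of 6 called higher and 3 lower in Tumor-AM members, and summed to 582 against 1352 CPM in members, 557 against 1438 CPM in comparison barcodes and 854 against 1050.1 CPM in barcodes of 4000 UMIs or more.

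The calcium-binding protein gene *S100a6* stood at 341 CPM in Tumor-AM members and 19.99 CPM in Control-AM members (log2 ratio 4.09 [3.20 to 5.13]). *Il1b*, the gene of the cytokine interleukin 1 beta, stood at 657 CPM in Tumor-AM members and 43.6 CPM in Control-AM members (log2 ratio 3.91 [3.31 to 4.58]). *Inhba*, which encodes the subunit of activin A, stood at 509 CPM in Tumor-AM members and 61.8 CPM in Control-AM members (log2 ratio 3.04 [2.51 to 3.62]). In Tumor-AM *Inhba* was also higher in members than in comparison barcodes, at 509 against 122 CPM, and the 5 members with most *Inhba* UMIs held 40.5% of its 190 UMIs there. Without the 5 barcodes of each group with most *Inhba* UMIs, the log2 ratio of members over comparison barcodes was 1.71 in Tumor-AM, and that of Tumor-AM over Control-AM members was 3.70. Most of the 12 tumor library genes went the other way against comparison barcodes, with 3 higher and 8 lower in members of both libraries. Their median log2 ratio of members over comparison barcodes was -0.94 in Control-AM and -0.11 in Tumor-AM. *Spp1*, the osteopontin gene, stood at 2357 CPM in Tumor-AM members and 683 CPM in Control-AM members (log2 ratio 1.79 [1.61 to 1.96]), and *Osm*, the oncostatin M gene, at 1083 CPM in Tumor-AM members and 271 CPM in Control-AM members (interval of the log2 ratio 1.73 to 2.28).

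Of the other genes furthest above, *Ifi27l2a*, an interferon-responsive gene, had a log2 ratio of 3.24, *Pdpn*, the podoplanin gene, 3.17, *Ppp1r3b*, a glycogen-targeting phosphatase subunit gene, 3.11, *Adam8*, a metalloprotease gene, 2.78, *Vps37b* 2.77, the heat shock gene *Hspa1b* 2.47 and *St8sia4*, a sialyltransferase gene, 2.45. These rested on few control UMIs, such as 6 for *Ppp1r3b* and 9 for *Adam8*, and the *Ifi27l2a* ratio was -0.66 when members were limited to at most 5% mt- UMIs. *Fabp1*, a fatty acid binding protein gene, was furthest below, at 48.3 CPM in Tumor-AM members and 251 CPM in Control-AM members (log2 ratio -2.38 [-3.17 to -1.66]). *Marco*, a scavenger receptor gene of AMs, stood at 268 CPM in Tumor-AM members and 889 CPM in Control-AM members (log2 ratio -1.73 [-2.05 to -1.42]). The class II antigen presentation genes *H2-Aa* and *Cd74* had log2 ratios of -1.82 and -1.75, and 5 barcodes held 54.8% of the *H2-Aa* UMIs of Control-AM members. The complement receptor gene *C5ar2* had -1.79, *Fam189a2* -1.73 (0.53 with at most 5% mt- UMIs), *Scaf8* -1.70, *Ttll3* -1.61, *Ttll5* -1.55 and *Ddx41* -1.54.

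The ratios of some genes differed from those in deeper barcodes, where each ratio was taken over separate barcodes of the same libraries. *Apoe*, the apolipoprotein E gene, had a log2 ratio of 2.15 in members and 4.69 in barcodes of 4000 UMIs or more, at 201 CPM in Tumor-AM members and 621 CPM in deeper Tumor-AM barcodes. *Il1b* had 3.91 and 2.34, and *Inhba* 3.04 and 1.69. When members were limited to at most 5% mt- UMIs the *Apoe* ratio was -0.57. The counting intervals of these 3 genes did not overlap between members and deeper barcodes, which held for 487 (8.86%) of the 5494 genes, and no difference was tested.

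**Figure D5:**
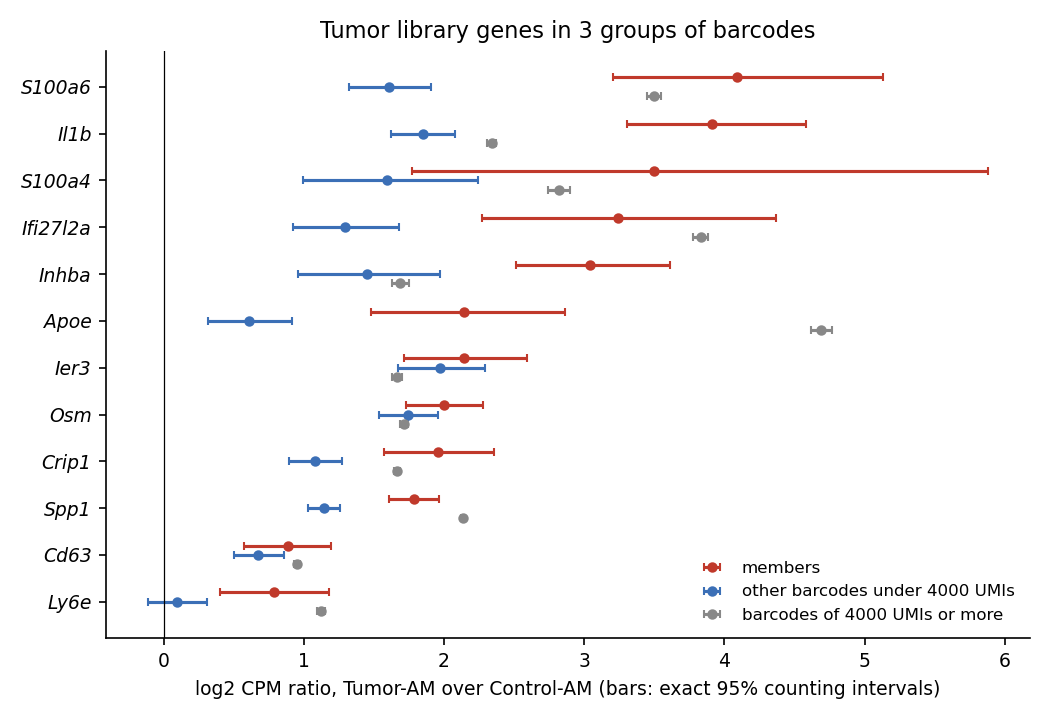
Log2 CPM ratio of Tumor-AM over Control-AM (x axis) for the 12 tumor library genes (rows) in members, comparison barcodes and barcodes of 4000 UMIs or more, with exact 95% counting intervals. All 12 ratios in members lie above 0, from 0.79 for *Ly6e* to 4.09 for *S100a6*.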

How the data were processed

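The 2 deposited tables of raw UMI counts per gene and barcode were used, 1 per library, made by the authors with Cell Ranger (version 4.0.0 in the submitters' processing notes, a later one in the study's methods) on mm10 from 10x 3' libraries, before doublet and quality filters. Their totals were 67847088 UMIs in 8485 Control-AM barcodes and 70738320 in 9175 Tumor-AM barcodes. Of 32285 identifiers, 32235 were matched to a symbol in GENCODE for GRCm38, and 542 of 546 listed genes were matched. No doublet caller was run.

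From the counts, UMIs were summed over members and comparison barcodes and expressed as CPM without the 4 nuclear RNAs in the total. Ratios have exact conditional binomial intervals, levels exact Poisson intervals and shares exact binomial intervals, at 95%. A count of 0 was set to 3 counts in list medians. With 1 library per condition, no test between conditions was made and no p-value is given. Ratios and intervals were tested on simulated sums that held counting error only. These left out differences between barcodes, so the coverage of the intervals in the real counts was not tested. Genes named are the selection and marker genes, the 10 most extreme each way (mean of at least 50 CPM, ribosomal and mt- genes left out), the 4 most abundant of each list, *Inhba*, *Actb*, *Gapdh*, *Ptprc* and the tumor library genes. Not all the genes this rule names are printed. *S100a9* is named as a defining neutrophil marker. The members and lists were chosen with earlier results of these data known. Alternatives changed the score, limits, totals, gene filter, depth weighting and comparison barcodes. Python 3.11.15, numpy 2.4.6, scipy 1.17.1, pandas 2.3.3 and matplotlib 3.10.9 were used.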

Additional observations from a re-analysis of the deposited data

Results flagged for a closer look

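The log2 ratio of members over comparison barcodes had opposite signs in Control-AM and Tumor-AM, with both counting intervals away from 0, for *Marco* (0.40 and -0.32), *Txnip* (-0.98 and 0.38), *Spp1* (-0.37 and 0.27) and *Gm42418* (-0.051 and 0.075). The log2 ratio of Tumor-AM over Control-AM had opposite signs in members and in barcodes of 4000 UMIs or more for *Ccnl1* (0.34 and -0.14), *Lyz2* (-0.23 and 0.19), *Runx1* (0.22 and -0.15), *Gm42418* (0.41 and -0.079), *Fth1* (-0.059 and 0.28), *Xist* (0.12 and -0.12) and *Tmsb4x* (-0.15 and 0.024). With 1 library per condition none of these differences was tested.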

How the results depend on the processing

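Counts of genes higher in members ran from 743 to 1542 and of genes lower from 522 to 953 over the 18 alternatives, all within 1.5 times of 1063 and 712. With comparison barcodes weighted to the members' depth, 972 of the 1063 and 658 of the 712 were still called. The sets changed more with at most 5% mt- UMIs, where 695 and 424 were, with *Malat1* left out of the score (800 and 513), under 6000 UMIs (797 and 568) and with a mean of at least 50 CPM (743 and 522), where fewer genes were compared. The median ratios of the ribosomal, respiratory chain, soluble cytosolic, splicing, chromatin, other lncRNA and mt- lists kept their sign in both libraries under the 16 alternatives that were run for them. That of the secreted, lysosomal and membrane list changed sign under some. The medians of the endoplasmic reticulum chaperone, immediate early, heat shock, lipid handling, AM marker and tumor library lists also changed sign under some, in at least 1 library. The AM marker median ran from -0.15 to 0.20 in Control-AM and from -0.16 to 0.24 in Tumor-AM.

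Shares of member barcodes in Control-AM and Tumor-AM were 2.91% and 2.06% with the highest 3%, 5.59% and 3.56% with the highest 10%, 3.49% and 2.10% with *Malat1* left out of the score, 2.91% and 2.43% under 3000 UMIs, 5.38% and 3.56% under 6000 UMIs, 1.502% and 1.17% with at most 5% mt- UMIs and 5.15% and 3.57% without barcodes that held at least 3 UMIs of another cell type's markers, where the number of passing barcodes also fell. The Control-AM share was 3.57% with the limit set in each library, and the Tumor-AM share 2.11% with at least 750 genes. In each of these settings that lists both libraries, the Control-AM share was the higher.

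Genes higher and lower in Tumor-AM members numbered 462 and 561 with at most 5% mt- UMIs, 550 and 685 with a mean of at least 10 CPM and 110 and 79 with at least 50 CPM, where more or fewer genes were compared. Those lower numbered 138 with the highest 10%, 376 under 3000 UMIs and 140 under 6000 UMIs. For ratios of Tumor-AM over Control-AM members, the sign turned for *Stmn1* without *Malat1* in the score (0.00576), and with at most 5% mt- UMIs for *Apoe* (-0.57), *Ifi27l2a* (-0.66) and *Fam189a2* (0.53). *Igkc* in Control-AM was 3.20 against all other barcodes. The cause was not tested for any of these. No paired analysis was possible because each condition has 1 library. Depth limits genes with few UMIs, whose intervals are wide.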

Other observations

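The counts of further gene groups are given beside the shares over all tested genes, of which 19.3% were called higher and 13.0% lower in members. Immediate early genes had 1 called higher and 0 lower of 21 tested, with *Fosb* at log2 ratios of 0.45 and 0.52 and *Junb* at -0.65 and -0.36 in Control-AM and Tumor-AM. Genes of inflammation and NF-kB signalling had 6 called higher and 0 lower of 28 tested, a share of 21.4% higher that is near that of all tested genes, and *Cxcl2*, a neutrophil chemoattractant gene, had -0.17 and 0.29. Heat shock genes had 1 called higher and 1 lower of 11 tested, with the chaperone gene *Hspa8* at -0.61 and -0.35. The p53 and stress response list had 1 called higher and 2 lower of 14 tested, with *Gdf15* at 0.44 and 0.75 and *Cdkn1a*, the p21 gene, at -0.72 and -0.27.

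Autophagy and lysosome regulators had 0 called higher and 5 lower of 15 tested (33.3% lower), among them *Gabarap*, which encodes a small protein of autophagosome membranes, at -0.80 and -1.12. Lipid handling genes had 3 called higher and 2 lower of 23 tested, with *Abcg1*, a cholesterol exporter gene of AMs, at 0.51 and -0.07. Of the cell cycle genes only 6 of 25 reached the level for a comparison, and 3 of these were called lower, among them *Tubb5* at -1.39 and -0.75 and *Hmgb2* at -1.33 and -0.77. MHC class II genes had 0 called higher and 1 lower of 6 tested and interferon-stimulated genes 0 called higher and 0 lower of 7 tested.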
